A study of Mus musculus with 6 samples.

Results

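Interferon-stimulated genes were followed in pro-B cells, the bone marrow precursors of B cells that assemble the immunoglobulin heavy chain gene. The list held 40 genes, picked by gene symbol from textbook members of the response. It was chosen with earlier results of these data known, so its shares of called genes are description and no independent support. Each of the 40 symbols stood on 1 gene identifier among the 54752 in the tables. The cells were sorted by flow cytometry from adult C57BL/6 mice. There were 3 mice with the genotype Skiv2lfl/fl-Cd79a-Cre (Skiv2l-deleted) and 3 mice with the genotype Skiv2lfl/fl (control), with 1 messenger RNA library per mouse. All 6 mice carried the floxed Skiv2l alleles. Cre, named for the B lineage gene Cd79a, is given by the labels for the Skiv2l-deleted mice alone, so a response to Cre and a response to loss of Skiv2l cannot be told apart. The product of Skiv2l is an RNA helicase, the motor of the SKI complex, which threads RNA into the cytosolic exosome for degradation. Neither the sex of the mice nor the surface markers used for sorting is stated in the labels.

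Interferons are secreted proteins that cells make when they sense foreign or misplaced nucleic acid. Type I interferon binds the receptor chains IFNAR1 and IFNAR2, the kinases JAK1 and TYK2 are activated, and phosphorylated STAT2 works with IRF9 in a complex that binds interferon-stimulated response elements in promoters. Interferon gamma acts on another kind of element, the gamma-activated site. The genes switched on block viruses at entry, replication and release, and many of them keep a basal level in unstimulated immune cells. The deposited values were FPKM, a density of fragments scaled to transcript length and library size, so levels may be set side by side between genes. Between mice this scaling does not make the medians of the libraries equal, and a fit with equal medians is given below.

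Aligned bases came to 1.74 to 2.40 Gb per library, and 12975 to 13738 genes per library stood at 1 FPKM or more. Skiv2l stood at 9.53, 16.1 and 10.9 FPKM in Skiv2l-deleted libraries, against 25.4, 20.2 and 46.3 FPKM in control libraries, which did not overlap (log2 fold change −1.21 ± 0.32, limma adjusted p = 0.063). Which exons were floxed is not stated in the labels, and these values take in reads from exons outside the deletion. All 13 pro-B marker genes stood at 1 FPKM or more in every library. Their summed level was 4431 to 5561 FPKM in Skiv2l-deleted and 2416 to 3534 FPKM in control libraries. Of the 13, 8 were called higher, where 4.97% of all tested genes were. Markers of later B cell stages summed to 180.1 to 291 FPKM in Skiv2l-deleted and 471 to 609 FPKM in control libraries. Of 8 tested, 6 were called lower, where 3.87% of all tested genes were. Of these 6, Fcer2a passed the filter through the control libraries alone. The part of these stages in the results was not tested. Genes of other marrow cells differed between libraries of the same genotype. Early granulocyte and monocyte genes were high in Skiv2l-deleted 2 and control 3. Elane stood at 3.46, 341 and 2.02 FPKM in Skiv2l-deleted libraries 1, 2 and 3, and at 3.95, 3.41 and 168 FPKM in control libraries 1, 2 and 3. Granule genes of mature neutrophils were high in Skiv2l-deleted 1 and control 2 as well, where Ngp stood at 49.6, 29.7 and 0.156 FPKM in Skiv2l-deleted libraries 1, 2 and 3, and at 0.221, 58.3 and 25.2 FPKM in control libraries 1, 2 and 3. Results below that rest on Skiv2l-deleted 2 and control 3 are given with and without them, and each other library was left out in turn.

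Interferon-stimulated genes that changed between the genotypes were higher in Skiv2l-deleted pro-B cells. Of the 40, 37 were tested because 3 or more of the 6 libraries held at least 1 FPKM. Each of the 37 held it in at least 1 control library. Ddx60 held it in only 1 control library, at 1.01 FPKM, beside 3 Skiv2l-deleted libraries. The controls alone would not have passed it, so its call is no support for a rise. Of these 37, 9 rose (24.3%), where 4.97% of all 13539 tested genes were called higher and 8.84% in either direction. The 9 were Gbp7, Ifi44, Lgals3bp, Gbp2, Usp18, Rtp4, Ddx60, Isg20 and Dtx3l. By limma 0 of 37 were called lower, where 3.87% of all tested genes were, and 1 of the 37, Sp100, was lower at an unadjusted p under 0.05 (9.85% of all tested genes). At that level 23 of the 37 were higher (62.2%, against 15.7% of all tested genes). The groups did not overlap in 22 of the 37 on the higher side (59.5%, against 19.9% of all tested genes) and in 1 on the lower side (12.3% of all tested genes). In 33 of 37 the difference was above 0 on the log2 scale (89.2%, against 57.8% of all tested genes), and the median log2 fold change of the 37 was 0.54, beside 0.06 for all tested genes. In a bulk sample, more cells of a type and more RNA per cell cannot be told apart.

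The count of members called higher depended on single libraries, as did the count of all genes. It was 3 without Skiv2l-deleted 1, Skiv2l-deleted 3 or control 1, 5 without Skiv2l-deleted 2 or control 2, and 11 without control 3. Without Skiv2l-deleted 2, 1 member, Samhd1, was called lower, as were 307 of all 13245 genes tested then. The share of all tested genes called higher was 0.534%, 2.69% and 0.475% when Skiv2l-deleted library 1, 2 or 3 was left out. It was 1.58% without control 1, 1.79% without control 2 and 7.65% without control 3. Gbp2, Gbp7 and Lgals3bp were called in each of the 6 omissions. In the 4 libraries without Skiv2l-deleted 2 and control 3, 8 members were called higher (7.3% of all tested genes) and 1 was called lower (5.73% of all tested genes). Of the 9 named above, 6 remained among those 8, and Bst2 and Ifitm3 joined them. With no filter on low values 3 members were called higher (0.988% of all tested genes), and with a term for those 2 libraries 17 were (11.8%). With the medians of the libraries set equal 8 members were called higher and 0 lower, where 4.13% of all tested genes were higher and 4.9% lower. The 4-library fit did not call Usp18 (limma adjusted p = 0.062), Rtp4 (0.0729) or Ddx60 (limma adjusted p = 0.0547).

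**Figure D1:**
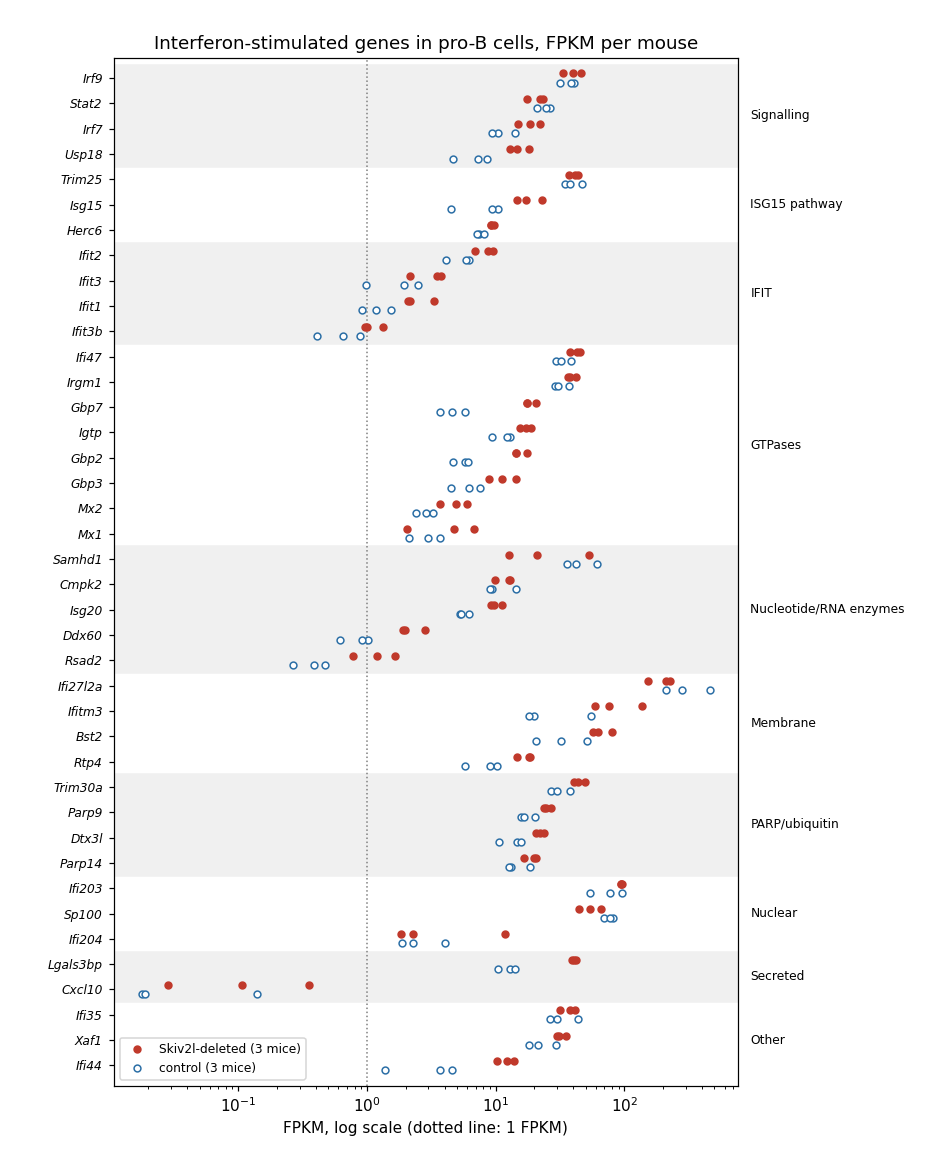
FPKM on a log axis for each of the 40 genes, grouped by role, with 3 Skiv2l-deleted mice (filled) above 3 control mice (open) and 1 point per mouse. The Skiv2l-deleted points of Gbp7, Gbp2, Lgals3bp and Ifi44 lie clear of the control points, and those of Stat2, Irf9, Trim25 and Cmpk2 overlap them.

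**Figure D2:**
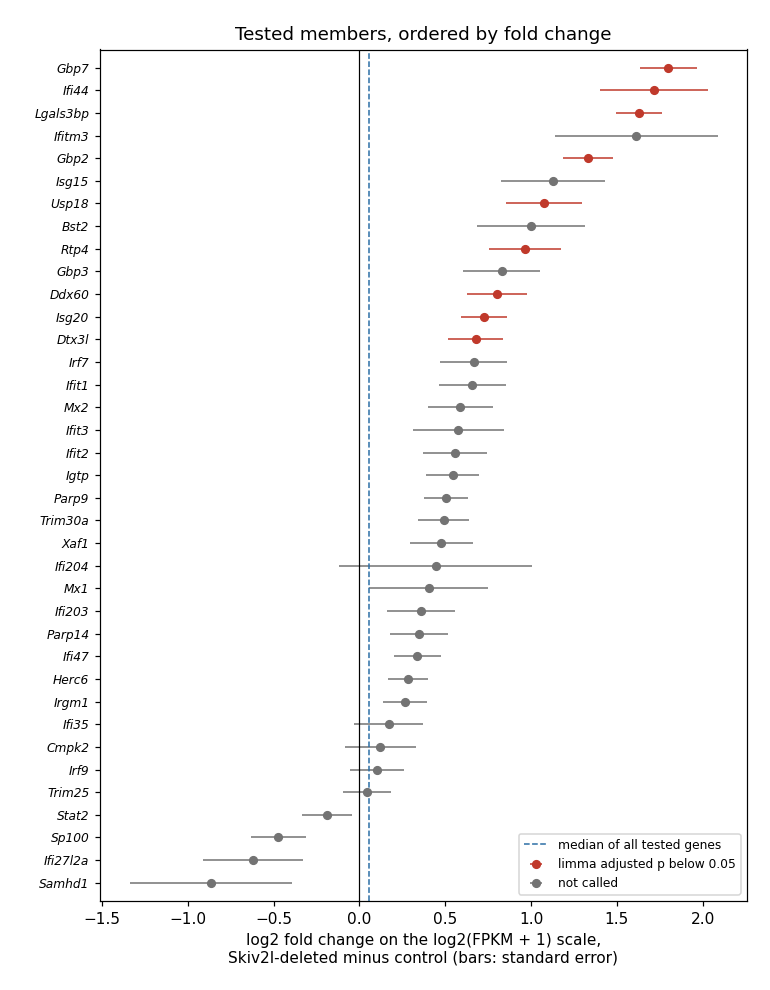
Log2 fold change of the 37 tested genes, Skiv2l-deleted minus control, on the log2(FPKM + 1) scale with its standard error. The 9 called genes are coloured, and the dashed line is the median of all 13539 tested genes at 0.06.

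The promoters of these genes are where the response is read out, so the windows from 250 bases before to 50 bases after each RefSeq transcript start (GRCm38.p6) were searched for 2 cores. Of the 40 symbols, 32 matched the table, and Usp18, Mx1, Mx2, Rtp4, Ifi27l2a, Parp14, Parp9 and Ifi204 did not. The core of the interferon-stimulated response element, GAAA and a further GAAA with any 2 bases between them, on either strand, was found in 17 of the 32 genes (53.1%), against 3.99% of all 27025 genes in the table. The core of the gamma-activated site, TTCNNNGAA on either strand, was found in 8 of 32 (25%), against 9.55% of all genes. The windows below show the response element in capitals, 5′ to 3′ on the strand of the gene. They are the 3 guanylate-binding protein genes of the list, Isg15, the Ifit genes with a match, Ddx60, Bst2 and Igtp.

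Gbp7 (chr3:142530261-142530310, plus strand): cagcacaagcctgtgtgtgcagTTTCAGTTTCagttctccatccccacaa
Gbp2 (chr3:142620588-142620637, plus strand): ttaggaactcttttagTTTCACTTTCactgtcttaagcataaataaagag
Gbp3 (chr3:142559969-142560018, plus strand): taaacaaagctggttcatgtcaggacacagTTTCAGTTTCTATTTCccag
Isg15 (chr4:156200859-156200908, minus strand): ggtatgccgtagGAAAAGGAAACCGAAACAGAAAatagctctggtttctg
Ifit1 (chr19:34640774-34640823, plus strand): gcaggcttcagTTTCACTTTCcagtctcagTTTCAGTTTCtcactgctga
Ifit3 (chr19:34583364-34583423, plus strand): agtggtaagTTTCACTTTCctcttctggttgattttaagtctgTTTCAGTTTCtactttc
Ifit3b (chr19:34607760-34607819, plus strand): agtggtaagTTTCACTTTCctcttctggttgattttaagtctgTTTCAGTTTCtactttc
Ddx60 (chr8:61928027-61928086, plus strand): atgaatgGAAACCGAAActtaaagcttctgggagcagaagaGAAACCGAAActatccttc
Bst2 (chr8:71537568-71537617, minus strand): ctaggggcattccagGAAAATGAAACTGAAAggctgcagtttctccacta
Igtp (chr11:58199496-58199545, plus strand): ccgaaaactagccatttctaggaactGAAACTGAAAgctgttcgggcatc

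The windows of Ifit3 and Ifit3b were identical in 60 of 60 bases. In Isg15 the capitals hold 3 overlapping copies of the core, and in Gbp3 and Bst2 they hold 2. A match is a run of letters and does not show a bound site. Of the 14 tested members with a response element core, 3 were called higher, where 4.97% of all tested genes were. Ddx60, whose call is no support for a rise, is among these 3. The median log2 fold change of the 14 was 0.73, with a range of −0.19 to 1.80. Of the 15 tested members with none in the window, 4 were called higher, at a median of 0.34 and a range of −0.86 to 1.72. The called genes were thus found on both sides of this split, with Gbp7, Gbp2 and Ddx60 among those with a core and Lgals3bp, Ifi44, Isg20 and Dtx3l among those without.

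Calls are counted by role group below, where 4.97% of all tested genes were called higher. Among the signalling genes 1 of 4 rose. Usp18, the protease that strips ISG15 from proteins and restrains the type I interferon receptor (chromosome 6, 121245906 to 121270917 in GRCm38, as all coordinates of genes here), stood at 12.9, 14.7 and 18.01 FPKM in Skiv2l-deleted libraries, against 4.68, 8.48 and 7.25 FPKM in control libraries. No Skiv2l-deleted value reached down to a control value. Usp18 averaged 15.2 ± 2.58 FPKM in Skiv2l-deleted and 6.80 ± 1.94 FPKM in control libraries (SD, n = 3), with a log2 fold change of 1.08 ± 0.22 (limma adjusted p = 0.0301, and 0.0222 to 0.124 over 19 alternatives). The call was lost without any Skiv2l-deleted library or without control 1. Irf7, the factor that amplifies interferon production, stood at 14.98, 22.03 and 18.5 FPKM in Skiv2l-deleted and 10.4, 14.2 and 9.38 FPKM in control libraries, without overlap (limma adjusted p = 0.0825, exact permutation p = 0.1, the smallest that 3 against 3 allows). Irf9, the DNA-binding partner of STAT2, had the highest level of this group, at 33.3, 46.1 and 39.7 FPKM in Skiv2l-deleted and 31.4, 40.8 and 38.2 FPKM in control libraries. The Irf9 groups overlapped. Stat2 averaged 20.9 ± 2.91 FPKM in Skiv2l-deleted and 23.9 ± 2.68 FPKM in control libraries (limma adjusted p = 0.473).

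ISG15 is a ubiquitin-like protein that is attached to other proteins after interferon. Isg15 stood at 14.5, 17.2 and 22.7 FPKM in Skiv2l-deleted libraries, against 4.46, 10.4 and 9.37 FPKM in control libraries. The groups did not overlap and the means differed 2.25-fold, yet the log2 fold change of 1.13 ± 0.30 missed the threshold (limma adjusted p = 0.0661, and 0.0482 to 0.218 over 19 alternatives). Control 1 was the lowest of the control libraries. Herc6, the ligase that attaches ISG15 in the mouse, averaged 9.37 ± 0.337 FPKM in Skiv2l-deleted and 7.53 ± 0.494 FPKM in control libraries, without overlap (limma adjusted p = 0.181). Trim25, a ubiquitin ligase of the RIG-I pathway, had the highest level of this group, at 43.9, 37.1 and 41.2 FPKM in Skiv2l-deleted and 34.7, 46.7 and 37.7 FPKM in control libraries. Its groups overlapped, and the sign of its difference changed with the medians of the libraries set equal (log2 fold change 0.04, and −0.02 then).

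The 4 Ifit genes, whose products bind viral RNA by its end, lie together on chromosome 19. None of the 3 tested was called by limma, and 2 of the 3 were higher at an unadjusted p under 0.05 (15.7% of all tested genes). Ifit2 had the highest level, at 8.77, 6.86 and 9.47 FPKM in Skiv2l-deleted and 6.21, 5.88 and 4.08 FPKM in control libraries. Ifit1 averaged 2.51 ± 0.68 FPKM in Skiv2l-deleted and 1.21 ± 0.315 FPKM in control libraries (2.07-fold, limma adjusted p = 0.0834). In both genes the groups did not overlap, and in Ifit3 they did (limma adjusted p = 0.23). Ifit3b did not pass the filter on low values, at 0.964, 0.998 and 1.34 FPKM in Skiv2l-deleted and 0.405, 0.649 and 0.883 FPKM in control libraries (exact permutation p = 0.1). Ifit3 and Ifit3b are near-identical copies between which reads can be split.

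GTPases formed the largest role group, with 8 genes, and 2 of the 8 rose. Gbp7, a guanylate-binding protein that acts on membranes around intracellular microbes (chromosome 3, 142530342 to 142550149), stood at 17.6, 17.6 and 20.6 FPKM in Skiv2l-deleted libraries, against 5.77, 3.66 and 4.59 FPKM in control libraries. The lowest Skiv2l-deleted library was far above the highest control. Gbp7 averaged 18.6 ± 1.74 FPKM in Skiv2l-deleted and 4.67 ± 1.06 FPKM in control libraries (SD, n = 3), 3.98-fold apart, with a log2 fold change of 1.80 ± 0.17 (limma adjusted p = 0.00429, and 0.00327 to 0.031 over 19 alternatives). Gbp2 (chromosome 3, 142620602 to 142638008) stood at 14.4, 14.3 and 17.4 FPKM in Skiv2l-deleted libraries, against 5.80, 4.67 and 6.05 FPKM in control libraries. Its log2 fold change was 1.33 ± 0.14 (limma adjusted p = 0.00618, and 0.00387 to 0.0378 over 19 alternatives), again without overlap. Gbp3 lies between those 2 genes on chromosome 3 and averaged 11.5 ± 2.75 FPKM in Skiv2l-deleted and 6.04 ± 1.52 FPKM in control libraries. Its groups did not overlap either, but the difference was not called (limma adjusted p = 0.0663, and 0.0145 to 0.196 over 19 alternatives).

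None of the immunity-related GTPases Ifi47, Irgm1 and Igtp, which guard vacuoles that hold pathogens, was called. Ifi47 had the highest level of the GTPase group, at 38.1, 43.1 and 45.1 FPKM in Skiv2l-deleted and 29.2, 38.5 and 32.0 FPKM in control libraries, which overlapped. Irgm1 averaged 38.7 ± 2.67 FPKM in Skiv2l-deleted and 32.1 ± 4.37 FPKM in control libraries, also with overlap. Igtp averaged 17.1 ± 1.76 FPKM in Skiv2l-deleted and 11.5 ± 1.89 FPKM in control libraries, without overlap (limma adjusted p = 0.0739). Mx2, a dynamin-like antiviral GTPase, averaged 4.86 ± 1.17 FPKM in Skiv2l-deleted and 2.86 ± 0.427 FPKM in control libraries, without overlap (limma adjusted p = 0.104). Its neighbour Mx1 stood at 2.06, 6.72 and 4.78 FPKM in Skiv2l-deleted and 2.13, 2.98 and 3.72 FPKM in control libraries, with overlap.

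Several GTPase and membrane genes belong to families that share a chromosome, and relatives from the list of further interferon-inducible genes are set beside them. These families were put together with the values known. In the chromosome 3 family of Gbp2, Gbp3, Gbp5 and Gbp7, 3 of 4 rose, where 4.97% of all tested genes were called higher. The summed level of these 4 was 52.5 ± 4.68 FPKM in Skiv2l-deleted and 19.6 ± 3.41 FPKM in control libraries (SD, n = 3). In the chromosome 5 family, Gbp6 stood at 2.54, 2.37 and 4.79 FPKM in Skiv2l-deleted and 0.816, 0.917 and 0.795 FPKM in control libraries. It passed the filter through the Skiv2l-deleted libraries alone, so its call is no support for a rise. In the chromosome 11 family of immunity-related GTPases, Tgtp1 and Tgtp2 rose among 6 tested. These 6 are not all neighbours, as Irgm1 spans 48861968 to 48871683 and Igtp 58199556 to 58207591. Tgtp1 stood at 3.04 times its control mean and Tgtp2 at 2.99 times, whereas Irgm1 stood at 1.20 times and Ifi47 at 1.27 times. The differences among these ratios were not tested. Tgtp1 and Tgtp2, and Gbp6 and its neighbour Gbp10, are close paralogs.

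**Figure D3:**
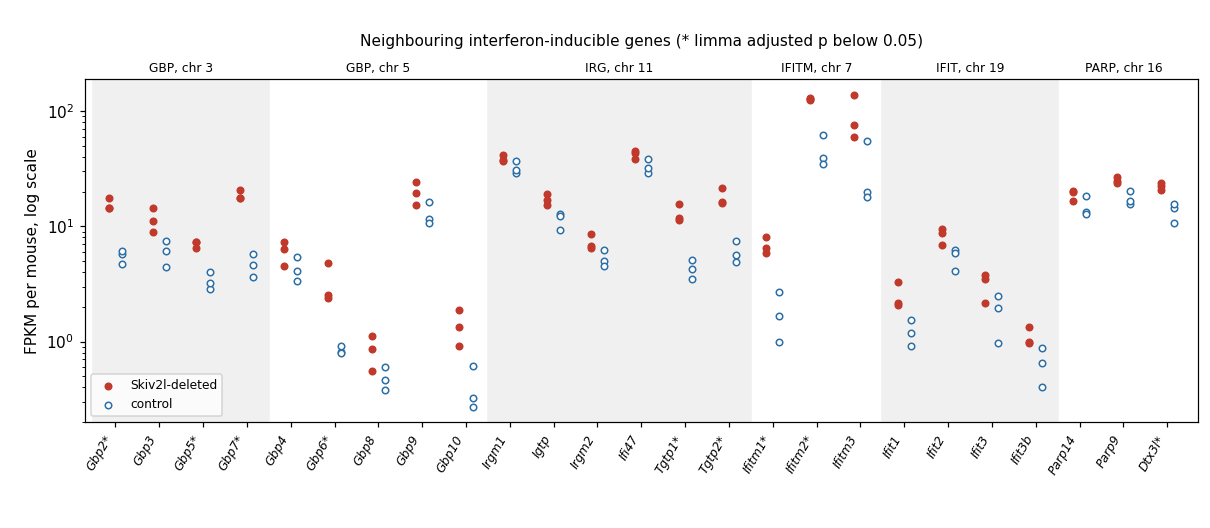
FPKM per mouse on a log axis for the genes of 6 families, each on a single chromosome, with Skiv2l-deleted mice (filled) left of control mice (open) for each gene. Stars mark genes with a limma adjusted p below 0.05, among them 3 of 4 on chromosome 3, both Tgtp genes and both Ifitm1 and Ifitm2.

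Of the 5 enzymes that act on nucleotides or RNA, 4 were tested and 2 rose. Isg20, an exonuclease that degrades viral RNA (chromosome 7, 78913424 to 78920396), stood at 9.63, 9.14 and 11.2 FPKM in Skiv2l-deleted libraries, against 5.29, 5.36 and 6.22 FPKM in control libraries. Its log2 fold change was 0.73 ± 0.13 (limma adjusted p = 0.0222, and 0.0136 to 0.116 over 19 alternatives), and the call was lost without Skiv2l-deleted 1 or 3 or control 1 or 2. Ddx60, a helicase of the antiviral response (chromosome 8, 61928087 to 62038244), stood at 1.97, 1.90 and 2.82 FPKM in Skiv2l-deleted libraries, against 1.01, 0.906 and 0.621 FPKM in control libraries. The Ddx60 groups did not overlap. Only 1 control library reached the 1 FPKM of the filter, so this call is no support for a rise. The log2 fold change was 0.80 ± 0.18 (limma adjusted p = 0.0371, and 0.017 to 0.163 over 18 alternatives), and the call was lost in each of the 6 omissions of 1 library. Rsad2, which encodes viperin, a radical enzyme that makes a chain-terminating nucleotide, did not pass the filter, at 0.772, 1.20 and 1.65 FPKM in Skiv2l-deleted and 0.390, 0.469 and 0.266 FPKM in control libraries (exact permutation p = 0.1). Cmpk2, a nucleotide kinase beside Rsad2 on chromosome 12, averaged 11.8 ± 1.76 FPKM in Skiv2l-deleted and 10.9 ± 3.06 FPKM in control libraries, with overlap.

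Samhd1, the enzyme that depletes deoxynucleotides, had the highest level of the enzymes and the lowest fold change of the tested members. It stood at 12.7, 52.8 and 20.9 FPKM in Skiv2l-deleted libraries 1, 2 and 3, and at 41.8, 36.0 and 60.7 FPKM in control libraries 1, 2 and 3. Within each genotype the highest library was the one with raised early granulocyte and monocyte genes. The difference was not called in all 6 libraries (log2 fold change −0.86 ± 0.47, limma adjusted p = 0.315). Samhd1 was called lower in the 4 without that pair (−1.20, limma adjusted p = 0.0356, with 0.0356 to 0.671 over 19 alternatives). It was also called lower without Skiv2l-deleted 2 alone (−1.41, limma adjusted p = 0.0474).

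Of the 4 genes whose products act at membranes, 1 rose. Rtp4, a transmembrane chaperone induced by interferon (chromosome 16, 23520291 to 23614222), stood at 14.6, 18.1 and 18.4 FPKM in Skiv2l-deleted libraries, against 5.80, 10.3 and 9.06 FPKM in control libraries, without overlap. Its log2 fold change was 0.97 ± 0.21 (limma adjusted p = 0.0357, and 0.0235 to 0.144 over 19 alternatives). The Rtp4 call was lost in each omission except that of control 3. Ifitm3, which blocks fusion of viruses with endosomes, stood at 59.0, 138 and 75.5 FPKM in Skiv2l-deleted and 19.9, 18.01 and 55.0 FPKM in control libraries. The groups did not overlap and the means differed 2.93-fold, but the spread was wide and the difference was not called (limma adjusted p = 0.081). In the 4 libraries without Skiv2l-deleted 2 and control 3, the pair in which Ifitm3 was highest, it was called (log2 fold change 1.77, limma adjusted p = 0.00908, with 0.003 to 0.222 over 19 alternatives).

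Bst2 encodes tetherin, which holds budding virions at the cell surface, and it stood at 56.9, 80.8 and 62.4 FPKM in Skiv2l-deleted and 20.6, 32.3 and 51.4 FPKM in control libraries, without overlap. The log2 fold change was 0.998 ± 0.31 (limma adjusted p = 0.0985), and in the 4 libraries 1.18 (limma adjusted p = 0.031, with 0.0184 to 0.243 over 19 alternatives). Tetherin is also an antigen of plasmacytoid dendritic and plasma cells. The 9 markers of plasmacytoid dendritic cells summed to 60.9, 141 and 82.9 FPKM in Skiv2l-deleted and 69.1, 51.3 and 80.8 FPKM in control libraries, where Siglech, a defining marker, stood at 0.137, 6.09 and 0.316 FPKM in Skiv2l-deleted and 1.04, 0.782 and 0.736 FPKM in control libraries. Of that list 1 of 3 tested genes, Cox6a2, was called higher, where 4.97% of all tested genes were. Klk1 was at 0 in all 3 control libraries. The 6 plasma cell markers summed to 54.9 to 83.9 FPKM in Skiv2l-deleted and 271 to 529 FPKM in control libraries. Of 4 tested, 3 were called lower, where 3.87% of all tested genes were. Of these 3, Jchain and Igha passed the filter through the control libraries alone, so their calls are no support for a fall. The part of these cells in the Bst2 difference was not tested. Ifi27l2a was the most abundant member, at 154, 226 and 211 FPKM in Skiv2l-deleted and 210.3, 458 and 278 FPKM in control libraries, with overlap (limma adjusted p = 0.241).

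Of the 4 genes for ADP-ribosylation and ubiquitin ligases, 1 rose. Dtx3l (chromosome 16, 35926511 to 35939151) encodes the ligase partner of PARP9, and it stood at 22.2, 20.6 and 23.6 FPKM in Skiv2l-deleted libraries, against 14.5, 15.7 and 10.6 FPKM in control libraries. The groups did not overlap, with a log2 fold change of 0.68 ± 0.16 (limma adjusted p = 0.046, and 0.0112 to 0.18 over 19 alternatives). The Dtx3l call was lost in each omission except that of control 3. Its partner Parp9 averaged 25.1 ± 1.58 FPKM in Skiv2l-deleted and 17.5 ± 2.33 FPKM in control libraries, without overlap, and just missed the threshold (log2 fold change 0.50 ± 0.13, limma adjusted p = 0.056). Trim30a, a TRIM family protein with the highest level of this group, stood at 40.8, 43.6 and 49.4 FPKM in Skiv2l-deleted and 27.0, 38.0 and 30.1 FPKM in control libraries, without overlap (limma adjusted p = 0.0931). Parp14, which modifies proteins with single ADP-ribose units, averaged 18.9 ± 2.11 FPKM in Skiv2l-deleted and 14.8 ± 3.15 FPKM in control libraries, with overlap. Parp9 and Dtx3l overlap head to head by 682 bases, and the files do not say whether strand was used in counting.

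The nuclear genes Ifi203, Ifi204 and Sp100 gave 0 calls by limma. At an unadjusted p under 0.05, 0 were higher and 1 lower (15.7% and 9.85% of all tested genes). Ifi203, of the PYHIN family that senses DNA, stood at 96.5, 93.8 and 94.3 FPKM in Skiv2l-deleted and 77.3, 95.3 and 54.1 FPKM in control libraries, with overlap. Sp100, a constituent of PML nuclear bodies, averaged 54.7 ± 11.1 FPKM in Skiv2l-deleted and 75.5 ± 6.12 FPKM in control libraries. It was the one member whose Skiv2l-deleted libraries all lay below the controls (log2 fold change −0.47 ± 0.16, limma adjusted p = 0.12). Ifi204 stood at 1.85, 11.7 and 2.29 FPKM in Skiv2l-deleted and 2.29, 1.85 and 4.04 FPKM in control libraries. The high value is that of Skiv2l-deleted 2, and the log2 fold change of 0.44 became −0.24 without it.

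Of the 2 genes with secreted products, 1 was tested. Lgals3bp, a glycoprotein that binds galectins (chromosome 11, 118392751 to 118402092), stood at 39.0, 40.8 and 42.1 FPKM in Skiv2l-deleted libraries, against 13.02, 14.2 and 10.47 FPKM in control libraries. The spread within each genotype was small beside the gap. Lgals3bp averaged 40.7 ± 1.55 FPKM in Skiv2l-deleted and 12.6 ± 1.90 FPKM in control libraries (SD, n = 3), with a log2 fold change of 1.63 ± 0.13 (limma adjusted p = 0.00365, and 0.00205 to 0.0294 over 19 alternatives). Cxcl10, the chemokine often used as a readout of interferon, did not pass the filter and stood at 0.352 FPKM or less in every library.

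Among the other members, Ifi44 rose. Ifi44 (chromosome 3, 151730922 to 151749960) stood at 12.2, 10.3 and 13.8 FPKM in Skiv2l-deleted libraries, against 3.71, 4.55 and 1.38 FPKM in control libraries, without overlap. The log2 fold change was 1.72 ± 0.31 (limma adjusted p = 0.0223, and 0.00422 to 0.0973 over 19 alternatives), and the call was lost without Skiv2l-deleted 1, Skiv2l-deleted 3 or control 1. Xaf1, which opposes the apoptosis inhibitor XIAP, averaged 31.9 ± 2.81 FPKM in Skiv2l-deleted and 23.1 ± 5.88 FPKM in control libraries, without overlap (limma adjusted p = 0.16). Ifi35 had the highest level of this group, at 31.5, 41.3 and 38.0 FPKM in Skiv2l-deleted and 26.2, 30.2 and 43.3 FPKM in control libraries. The Ifi35 groups overlapped.

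**Figure D4:**
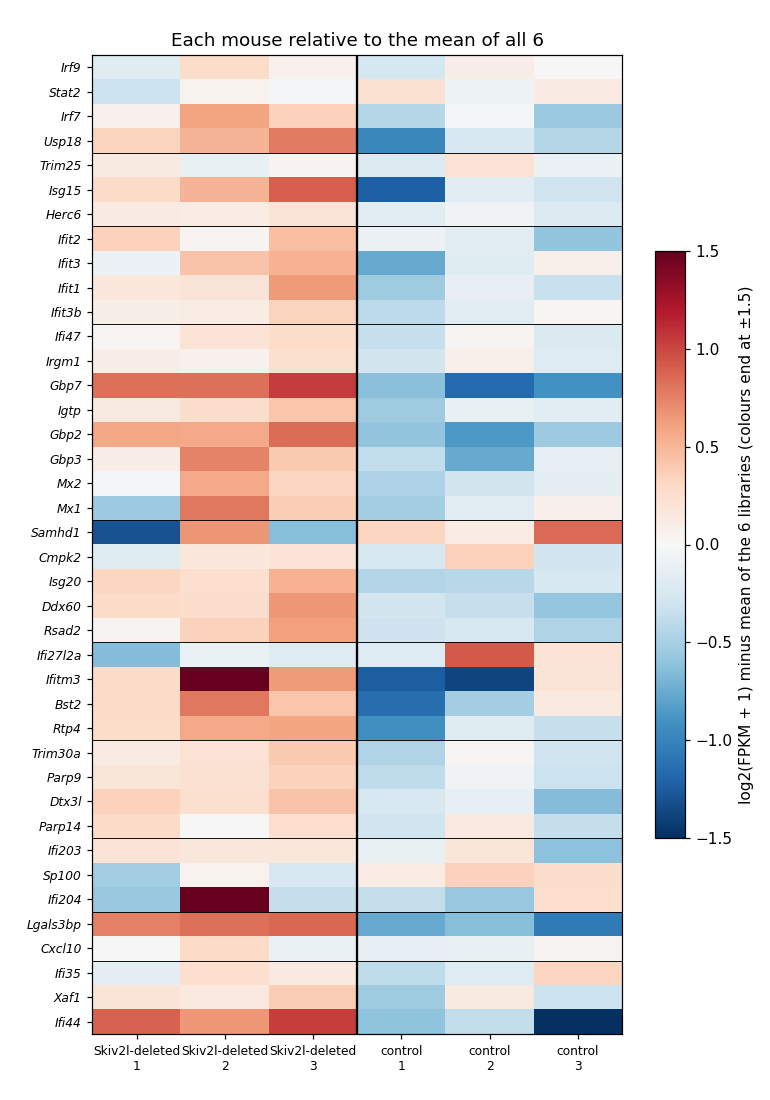
Each of the 40 genes in each mouse as log2(FPKM + 1) minus the mean over the 6 libraries, with Skiv2l-deleted mice left of the line and control mice right of it, and role groups separated by thin lines. Skiv2l-deleted 3 holds the highest value of 22 genes and control 1 the lowest of 19, and Samhd1, Ifi204, Ifitm3 and Mx1 show the widest differences within a genotype.

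Across mice, Skiv2l-deleted 3 had the highest value in 22 of the 40 genes, Skiv2l-deleted 2 in 9 and Skiv2l-deleted 1 in 2. Control 2 had the highest value in 4, control 3 in 2 and control 1 in 1. Control 1 had the lowest value in 19 genes, control 3 in 11 and control 2 in 4. Skiv2l-deleted 1 had the lowest value in the other 6, Samhd1, Ifi27l2a, Sp100, Stat2, Mx1 and Ifi204 among them, and Skiv2l-deleted 2 and 3 in 0. The summed level of the 40 genes was 980.4, 1279 and 1171 FPKM in Skiv2l-deleted and 812, 1192 and 994 FPKM in control libraries, which overlapped. Without Ifi27l2a the sums were 827, 1053 and 959 FPKM in Skiv2l-deleted and 602, 734 and 716 FPKM in control libraries, which did not. Ifi27l2a, the most abundant member, was left out with its values known, and its log2 fold change was −0.62.

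Marker sums of other marrow cells were set beside the members. The 8 monocyte and macrophage markers summed to 61.1, 1383 and 84.0 FPKM in Skiv2l-deleted and 148, 62.3 and 687 FPKM in control libraries. The 8 neutrophil markers summed to 365, 1506 and 10.7 FPKM in Skiv2l-deleted and 17.0, 463 and 898 FPKM in control libraries. Erythroid markers summed to 202 FPKM in Skiv2l-deleted 2 and to 3.75 to 8.37 FPKM in the other 5 libraries. No marker of these 3 lists was listed at 0 in all 6 libraries. Of those tested none was called, where 8.84% of all tested genes were called in either direction. The 7 natural killer cell markers summed to 14.999 to 46.4 FPKM in Skiv2l-deleted and 6.67 to 19.9 FPKM in control libraries. Of that list 1 of 3 tested genes was called higher, where 4.97% of all tested genes were. It was Klrb1c, the receptor NK1.1, at 11.96, 12.4 and 9.15 FPKM in Skiv2l-deleted libraries, against 3.61, 2.43 and 2.64 FPKM in control libraries (limma adjusted p = 0.00608, called in each of 6 omissions). The defining marker Ncr1 stood at 0.169 FPKM or less in every library. The 7 T cell markers summed to 38.1, 21.6 and 27.0 FPKM in Skiv2l-deleted and 29.0, 29.2 and 28.1 FPKM in control libraries. Most of this was Lck, which was not called, at 36.4, 19.9 and 26.6 FPKM in Skiv2l-deleted and 28.3, 27.9 and 27.6 FPKM in control libraries. Cd4 stood at 0.391 FPKM or less in every library, with the Skiv2l-deleted libraries above the controls. Cd3e, a defining T cell marker, was at 0 in 5 of 6 libraries. The part of these cells in the differences of members was not tested. Of the 37 tested members, 8 were highest in both Skiv2l-deleted 2 and control 3 within their genotypes (21.6%, against 27.9% of all tested genes), among them Ifitm3, Bst2, Samhd1, Ifi204 and Mx1. Within the other 4 libraries the log2 fold change was 1.83 in Gbp7, 1.44 in Gbp2 and 1.51 in Lgals3bp.

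**Figure D5:**
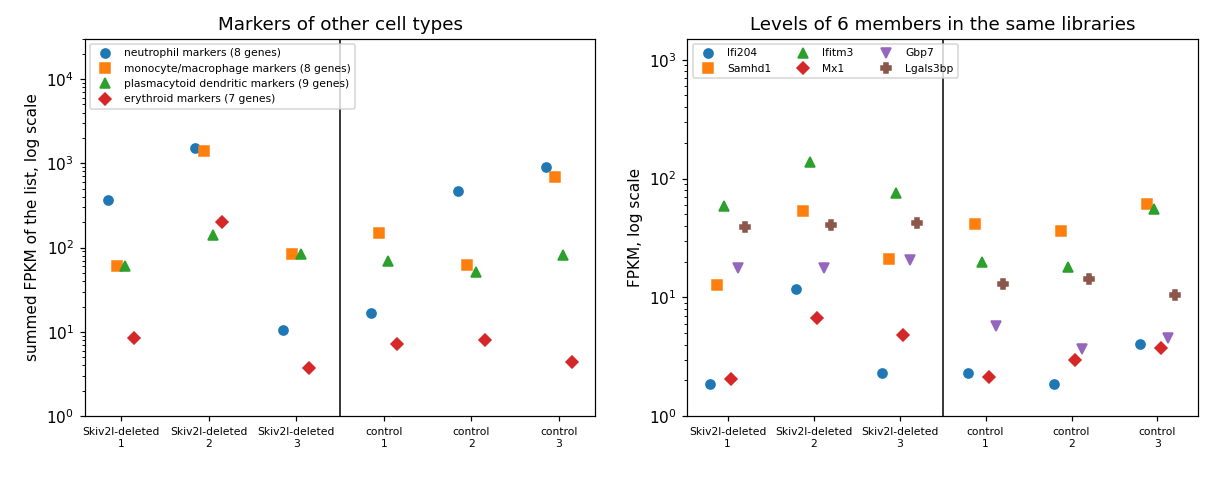
Left, summed FPKM of 4 marker lists of other cell types in each library on a log axis, and right, FPKM of 6 members in the same libraries, with Skiv2l-deleted left of the line and control right of it. Skiv2l-deleted 2 and control 3 have the highest neutrophil and monocyte sums, and Ifi204, Samhd1, Ifitm3 and Mx1 are highest in the same libraries of each genotype, whereas Gbp7 and Lgals3bp are not.

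The pathway upstream of these genes was described from lists of textbook members. Of 21 interferon genes, 17 were listed at 0 in all 6 libraries, Ifnb1 and Ifng among them, the highest value of any was 0.0977 FPKM, and none passed the filter. Genes listed at 0 may still be transcribed. Of 10 genes in the list of receptors and their signalling partners, 1 rose and 0 fell, where 4.97% of all tested genes were called higher. It was Ifnlr1, the chain that gives the lambda interferon receptor its specificity, at 5.04, 2.85 and 4.71 FPKM in Skiv2l-deleted libraries, against 1.79, 0.858 and 1.26 FPKM in control libraries (log2 fold change 1.17 ± 0.24, limma adjusted p = 0.0293, with 0.0152 to 0.126 over 18 alternatives). The Ifnlr1 call was lost without Skiv2l-deleted 1 or 3 or control 1 or 2. All 10 had a log2 fold change above 0, as did 57.8% of all tested genes, and their median was 0.34. Ifnar1 averaged 29.8 ± 0.58 FPKM in Skiv2l-deleted and 21.8 ± 1.88 FPKM in control libraries, without overlap, at the edge of the threshold (log2 fold change 0.44 ± 0.11, limma adjusted p = 0.05 when rounded, not called). Ifnar2 averaged 30.5 ± 3.88 FPKM in Skiv2l-deleted and 24.1 ± 1.87 FPKM in control libraries, without overlap (limma adjusted p = 0.172).

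Of 9 tested interferon regulatory factors and their binding proteins outside the member list, 0 were called by limma. At an unadjusted p under 0.05, 1 was higher and 1 lower (15.7% and 9.85% of all tested genes). Irf1, which interferon gamma induces, averaged 60.4 ± 10.2 FPKM in Skiv2l-deleted and 45.1 ± 6.79 FPKM in control libraries, with overlap. Of 10 genes that restrain the pathway, 0 were called (2 higher and 3 lower at an unadjusted p under 0.05, beside the same shares). Socs1, an inhibitor of JAK kinases named here after its values were seen, lay at the edge, at 1.79, 3.38 and 2.28 FPKM in Skiv2l-deleted and 4.92, 5.17 and 8.78 FPKM in control libraries, without overlap. Its log2 fold change was −1.05 ± 0.26 (limma adjusted p = 0.05 when rounded, not called, with 0.00519 to 0.182 over 18 alternatives).

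Further interferon-inducible genes outside the 40 were counted in the same way. Of 78 listed, 67 were tested, of which 16 were called higher (23.9%, against 4.97% of all tested genes) and 0 lower. By limma, 1 was lower at an unadjusted p under 0.05 (9.85% of all tested genes). Of the 67, Gbp6 and Cd274 passed the filter through the Skiv2l-deleted libraries alone. Gbp6 is among the 16 called. The part of Gbp6 and Cd274 in the counts of this paragraph is no support for a rise. Non-overlapping groups on the higher side were found in 33 of 67 (49.3%, against 19.9% of all tested genes), and the median log2 fold change was 0.36. The smallest p-values belonged to Tnfsf10, which encodes the death ligand TRAIL, to the GTPase genes Tgtp1 and Tgtp2, to the Schlafen genes Slfn5 and Slfn9 and to Ifitm2. Tnfsf10 stood at 23.1, 17.9 and 22.6 FPKM in Skiv2l-deleted libraries, against 7.98, 6.86 and 5.55 FPKM in control libraries (log2 fold change 1.51 ± 0.17, limma adjusted p = 0.00618). Ifitm2, a neighbour of Ifitm3 on chromosome 7, stood at 124, 129.9 and 128 FPKM in Skiv2l-deleted libraries, against 39.3, 34.3 and 62.0 FPKM in control libraries (1.52 ± 0.21, limma adjusted p = 0.01). The Ifitm2 call was lost without Skiv2l-deleted 1 or 3, whereas Tnfsf10, Tgtp1 and Tgtp2 were called in each of 6 omissions. Ube2l6, the conjugating enzyme for ISG15, rose by 0.73 (limma adjusted p = 0.0182), and the call was lost without Skiv2l-deleted 1 or 3 or control 1 or 2. The other genes called were Tor3a, Parp12, Ifitm1, Gbp5, Ly6a, Iigp1, Gbp6, Shisa5 and Ly6e. The count was 4 without Skiv2l-deleted 1, 3 without Skiv2l-deleted 3, 8 without control 1 and 18 in the 4 libraries without Skiv2l-deleted 2 and control 3.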

How the data were processed

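Messenger RNA of sorted pro-B cells was measured in 3 Skiv2l-deleted and 3 control mice. Libraries kept strand, per the labels' protocols, and GRCm38 is the build named in the submitters' processing notes. The authors deposited FPKM, TPM and mean coverage for each gene, per the file headers, and read counts were not used here. No label or header names the aligner, the quantifier or whether it used strand. The ratio of coverage to FPKM in single-transcript genes, constant within a library, gave the aligned bases, and TPM served in an alternative.

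Values were summed per gene identifier. Genotype was the only term of a limma 3.58.1 model (R 4.3.3, eBayes with trend) of log2(FPKM + 1), fitted to the 13539 genes that reached 1 FPKM in 3 or more of 6 libraries. P-values were Benjamini-Hochberg adjusted over all 13539 genes and called below 0.05. Fold changes are Skiv2l-deleted minus control, and this scale understates the change of low genes. Genes under the filter received an exact permutation test, two-sided. Nothing in the labels says more of the mice than their genotype, strain and stage. The p-values set the genotype difference against the spread within genotype among these 6 libraries, moderated over all tested genes.

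The members, gene lists, motifs and tests were chosen with earlier results of these data known, so no list received a test of its own. Values in every library were to be given for members called, for the most abundant tested member of each role group, and for members with a log2 fold change of 1 or more without overlap. From the other lists the 6 called genes with the smallest p in each direction and Ifnar1, Ifnar2, Irf1 and Ifnb1 were to be named, and 1 further gene of that rule is not reported here. Further per-library values, and Gbp6, Ube2l6 and Socs1, were added with the values known. Of 19 alternatives, 18 were planned and a term for Skiv2l-deleted 2 and control 3 was added after the data were seen.

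Of the 40 genes, 17 overlap another gene in the files. Igtp shares 7974 bases with Irgm2, Ifi203 22085 bases with Mndal and Ifi47 20388 bases with Olfr56, each on the same strand, and Parp9 5854 bases with an antisense transcript. Reads may be split or shared there.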

Additional observations from a re-analysis of the deposited data

How the results depend on the processing

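The 19 alternatives changed how many genes were called more than which way they pointed. The count of all called genes, 1197 as reported, was 512 with no filter on low values, 365 with the replicate block, 2620 with a term for Skiv2l-deleted 2 and control 3, and 179 to 1749 when 1 library was left out. With the medians of the libraries set equal, 559 genes were higher and 664 lower, against 673 and 524 as reported. Members called higher, 9 as reported, were 3 with no filter, 3 with the replicate block (all 3 among the 9), 17 with the term (all 9 among them) and 3 to 11 when 1 library was left out. Members called lower were 0 to 1 in those omissions and 1 in the 4 libraries without Skiv2l-deleted 2 and control 3. The median log2 fold change of tested members, 0.54, was 0.41 to 0.68 when 1 library was left out. Among receptors and JAKs, 1 as reported, the count of higher genes was 2 with a pseudocount of 0.5, 0 with no filter, 2 in the 4 libraries, 3 with the term and 0 to 2 in the omissions. Regulatory factors called lower, 0 as reported, numbered 1 in the 4 libraries, 1 with the term and 0 to 1 in the omissions. Genes that restrain the pathway called lower, 0 as reported, numbered 1 with a pseudocount of 0.5, with TPM, with equal medians, with no mean-variance trend, with a robust variance prior and in the 4 libraries, 2 with the term and 0 to 1 in the omissions. Further interferon-inducible genes called higher, 16 as reported, were 9 with no filter, 5 with the replicate block and 3 to 18 in the omissions, and those called lower were 2 in the 4 libraries and 0 to 1 in the omissions. Fewer samples were fitted in the omissions and more genes were tested without the filter. For the other changes the cause was not tested. The sign changed in Trim25 (log2 fold change −0.017 with equal medians, and −0.046 to 0.16 in the omissions), Irf9 (−0.0077 to 0.22), Cmpk2 (−0.039 in the 4 libraries, and 0.010 to 0.32 in the omissions) and Ifi204 (−0.24 to 0.84 in the omissions, −0.0011 in the 4 libraries).

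The replicate numbers in the labels were not shown to pair mice. Deviations from the genotype means correlated at 0.094, −0.43 and −0.35 for numbers 1, 2 and 3, whereas 3 pairs of unlike number correlated at 0.56 (Skiv2l-deleted 2 with control 3), 0.49 (Skiv2l-deleted 1 with control 2) and 0.41 (Skiv2l-deleted 3 with control 1). With 3 mice per genotype, and depth known only as aligned bases, members near 1 FPKM are the least certain. The labels give no batch.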
